A study of Homo sapiens with 40 samples.

Results

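LNCaP is a human prostate cancer cell line that grows in response to androgen, and MDV3100, also called enzalutamide, is an antiandrogen that blocks the androgen receptor. The arrays described here are the 7 replicate 1 arrays of MDV3100-resistant LNCaP clones in DMSO, the solvent of the drug, out of 40 arrays in the series. They were selected on the measured response of androgen-induced genes to MDV3100 in replicate 1: clones 1, 19 and 24 showed little fall of these genes (3 arrays), and clones 9, 10, 14 and 15 showed a clear fall (4 arrays). All 7 clones carry the resistant label, and 3 control lines labelled sensitive serve as a further point of comparison. All lines were grown in medium with 10% fetal serum for 3 days, then held for 24 h in 0.1% DMSO or in 10 µM MDV3100. Each clone is a single line with 1 array per treatment in this replicate set, and the labels do not say how the clones were derived or whether replicates were separate cultures. The p-values therefore describe the separation of these 7 cultures, which had been sorted on arrays that include the DMSO arrays themselves.

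In prostate epithelium, androgen binds the androgen receptor, which enters the nucleus and switches on genes such as KLK3, which encodes prostate-specific antigen, KLK2, a related kallikrein protease, and TMPRSS2, a membrane serine protease. An antiandrogen lowers these genes in cells that depend on the receptor. Resistant cells can keep the genes on under the drug, or grow although the genes are turned down.

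Before any comparison, the 2 replicate sets have to be kept apart. The profile of a clone in replicate 1, as deviations from the average of all 40 arrays gene by gene, correlated with the replicate 2 array of the same label at r between -0.63 and 0.06 across genes, which are not independent replicates. Its correlation with its own MDV3100 array in replicate 1 lay between 0.55 and 0.82. In replicate 2 the mean response of the androgen-induced genes to MDV3100 was -0.30, 0.12 and 0.12 on the log2 scale in clones 1, 19 and 24, and 0.11, 0.12, 0.10 and 0.06 in clones 9, 10, 14 and 15, so the split by response was not seen in that set. The average behind r takes in both sets, so a shift shared by a whole set also lowers r. These r values cannot tell such a shift from a difference between clones. Whether the replicate 2 arrays hold the clones their labels name was not tested and is not known. Each replicate 2 value, and the fit of both sets, is that of the arrays so labelled. Luminal markers were high in all 7 arrays, with KRT18, a luminal keratin, at signals of 2432.2 to 2846.5 in clones 1, 19 and 24 and 2504.3 to 3058.7 in clones 9, 10, 14 and 15. The basal keratin KRT5 and the leukocyte marker PTPRC did not exceed 3.4 in any of the 7 arrays. KRT14, another basal keratin, had 6.1 to 27.3 in clones 1, 19 and 24, against 3.1 to 4.6 in clones 9, 10, 14 and 15. Its probe set did not pass the filter on dim probe sets. The 3'/5' signal ratio of actin, a measure of RNA integrity, was 4.05 ± 0.69 in clones 1, 19 and 24 (SD, n = 3) and 4.07 ± 0.32 in clones 9, 10, 14 and 15 (SD, n = 4). The same ratio of GAPDH was far lower, at 1.313 ± 0.025 in clones 1, 19 and 24 (SD, n = 3) and 1.285 ± 0.023 in clones 9, 10, 14 and 15 (SD, n = 4).

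The values that chose the clones are the responses of 36 measured androgen-induced genes, given here as a description without a test. On the log2(signal + 16) scale, the mean response to MDV3100 was -0.19, -0.15 and -0.19 in clones 1, 19 and 24. It was -0.80, -0.80, -0.75 and -0.42 in clones 9, 10, 14 and 15, and -0.86, -0.80 and -0.87 in the control lines. Clone 15 lies nearest to the boundary between the groups. In DMSO, the mean level of the list was 8.57 ± 0.18 in clones 1, 19 and 24 (SD, n = 3), 8.39 ± 0.08 in clones 9, 10, 14 and 15 (SD, n = 4) and 8.70 ± 0.07 in the control lines (SD, n = 3). Under the drug it was 8.40 ± 0.16 in clones 1, 19 and 24, 7.70 ± 0.25 in clones 9, 10, 14 and 15 and 7.85 ± 0.11 in the control lines.

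KLK2 had DMSO signals of 2091.4, 1938.2 and 2075.2 in clones 1, 19 and 24, against 828.7, 770.8, 963.6 and 1717.6 in clones 9, 10, 14 and 15. The groups did not overlap, and the control lines had 1665.1, 3263.8 and 2005.4. Under MDV3100, KLK2 stood at 2496.1, 2148.8 and 2030.0 in clones 1, 19 and 24, against 123.8, 126.9, 196.5 and 1397.6 in clones 9, 10, 14 and 15. KLK3 overlapped between the groups in DMSO, with 995.5, 3792.9 and 1185.0 in clones 1, 19 and 24 and 1209.7, 577.4, 500.7 and 995.8 in clones 9, 10, 14 and 15. Clone 19 alone was at the level of the control lines, which had 3599.8, 3659.4 and 3551.4. FKBP5, a co-chaperone of steroid receptors, had overlapping signals as well, with 2189.3, 1638.6 and 2028.2 in clones 1, 19 and 24, against 2024.1, 1850.1, 1984.3 and 1812.7 in clones 9, 10, 14 and 15. Of the 36 list members, 24 were higher and 12 lower in clones 1, 19 and 24 in DMSO, with a median difference of 0.18, beside -0.02 over all 11853 genes.

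**Figure D1:**
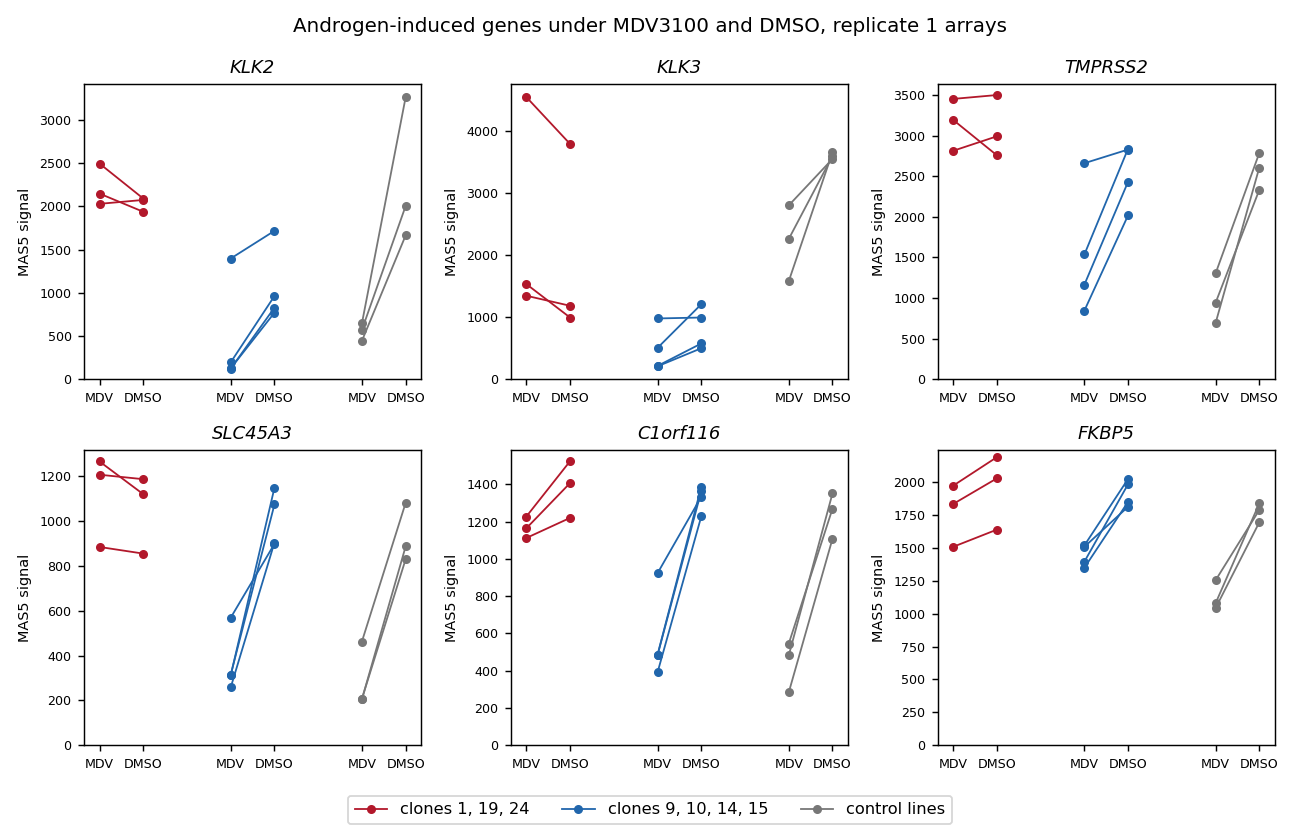
MAS5 signal (vertical axis, linear from 0) of 6 androgen-induced genes in replicate 1 arrays. Each line joins the MDV3100 and the DMSO array of a cell line. The DMSO signals of KLK3 and FKBP5 overlap between clones 1, 19, 24 and clones 9, 10, 14, 15, and the MDV3100 signals of KLK2 lie at or above 2030.0 in the first group and at or below 1397.6 in the second.

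Across all genes in DMSO, limma called 109 of 11853 genes at a Benjamini-Hochberg adjusted p under 0.05, or 0.92%. The calls leaned to one side: 21 genes (0.177%) were higher in clones 1, 19 and 24, and 88 (0.742%) were lower. RLN1, DAB1 and CD274 led the genes that were higher, and ALB, KCNH8 and ANKRD29 led those that were lower. Without regard to the test, 806 genes (6.8%) were higher without overlap between the arrays of the groups, and 1068 (9.01%) were lower without overlap. The count depends on single clones: it was 0 without clone 10 or without clone 14, 4 without clone 9, 23 without clone 1 and 34 without clone 19. In those 2 cases with a count of 0, 1595 and 1552 genes had an unadjusted p under 0.05 in limma, beside 1987 with all 7 clones. ALB, ANKRD29 and TBX5 were called in 5 of the 7 fits that left out a clone.

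Among the genes that were higher, RLN1, which encodes the peptide hormone relaxin 1, had signals of 1031.5, 905.9 and 368.6 in clones 1, 19 and 24, against 50.8, 67.8, 72.4 and 202.4 in clones 9, 10, 14 and 15. The control lines lay between the groups, at 308.6, 213.1 and 248.6. The log2 difference was 2.82 ± 0.46 (SE), with an adjusted p of 0.0415 in limma. DAB1, an adaptor in reelin signalling, had 63.2, 196.1 and 112.3 in clones 1, 19 and 24, against 2.5, 6.9, 3.5 and 30.1 in clones 9, 10, 14 and 15. It was called (adjusted p = 0.0437), but clones 9, 10 and 14 lay under the filter's signal of 12.1, and the log2 difference of 2.38 became 3.84 with a pseudocount of 1 and 1.28 with 64. CD274, the gene of the immune checkpoint ligand PD-L1, had 142.6, 161.7 and 69.7 in clones 1, 19 and 24, against 15.4, 27.9, 27.1 and 35.3 in clones 9, 10, 14 and 15, a log2 difference of 1.68 ± 0.26 (SE, adjusted p = 0.0363).

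The zinc exporter gene SLC30A1 had 424.3, 360.5 and 460.5 in clones 1, 19 and 24, against 160.8, 108.3, 108.4 and 243.7 in clones 9, 10, 14 and 15 (adjusted p = 0.0496). TBC1D4, a Rab GTPase-activating protein that acts in glucose transporter traffic, had 1095.6, 1205.0 and 884.6 in clones 1, 19 and 24, against 519.9, 443.1, 395.9 and 555.2 in clones 9, 10, 14 and 15 (adjusted p = 0.0225). In both genes clones 9, 10, 14 and 15 lay below all control lines, which had SLC30A1 at 307.1, 403.8 and 329.5 and TBC1D4 at 916.1, 724.8 and 758.0. The other genes named by size were HTATIP2 (log2 difference 1.20), ZNF518B (1.19), ANKRD44 (0.96), the oxysterol-binding family member OSBPL6 (0.85), the sphingosine 1-phosphate receptor S1PR3 (0.82), CDKN2B (0.80), which encodes an inhibitor of the cyclin D kinases, and IGIP (0.79). CDKN2B was dim, with mean signals of 36.27 in clones 1, 19 and 24 and 14.1 in clones 9, 10, 14 and 15. Its log2 difference was 1.34 with a pseudocount of 1 and 0.36 with 64, and it was called in 1 of the 7 fits that left out a clone.

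The largest difference in the other direction was in ALB, the gene of serum albumin, with signals of 10.3, 4.5 and 18.3 in clones 1, 19 and 24, against 321.5, 323.9, 349.8 and 149.9 in clones 9, 10, 14 and 15. The control lines had 19.7, 30.3 and 6.8, near clones 1, 19 and 24. The log2 difference was -3.45 ± 0.29 (SE, adjusted p = 0.0172). KCNH8, a voltage-gated potassium channel gene, had 7.7, 20 and 41 in clones 1, 19 and 24, against 272.0, 262.1, 521.8 and 182.6 in clones 9, 10, 14 and 15 (log2 difference -3.06 ± 0.37, SE, adjusted p = 0.0182), and here the control lines, at 129.0, 332.4 and 155.4, were near clones 9, 10, 14 and 15. ANKRD29 had 10.5, 6.7 and 11 in clones 1, 19 and 24, against 79.2, 215.7, 190.2 and 111.5 in clones 9, 10, 14 and 15 (log2 difference -2.62 ± 0.29, SE, adjusted p = 0.0182).

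PIGR, the receptor that carries immunoglobulins across epithelia, had 56.9, 23.6 and 35.9 in clones 1, 19 and 24, against 245.9, 434.5, 420.2 and 191.3 in clones 9, 10, 14 and 15 (log2 difference -2.60). AGR2, a disulfide isomerase of secretory cells, had 54.6, 69.1 and 131.7 in clones 1, 19 and 24, against 505.0, 373.8, 319.6 and 272.1 in clones 9, 10, 14 and 15 (log2 difference -1.96), with the control lines at 450.1, 1299.3 and 277.7. PXDN, a peroxidase that cross-links basement membrane collagen, had 15.4, 14.2 and 16.8 in clones 1, 19 and 24, against 98.7, 284.6, 213.6 and 145.9 in clones 9, 10, 14 and 15 (log2 difference -2.59). PXDN lies in the stretch of chromosome 2 described below. The groups do not overlap in any of these genes. The adjusted p was 0.0182 for PIGR, 0.0257 for AGR2 and 0.0182 for PXDN.

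TBX5, a T-box factor, had 12, 12.2 and 11.7 in clones 1, 19 and 24, against 74.9, 149.8, 95.0 and 180.9 in clones 9, 10, 14 and 15 (log2 difference -2.27, adjusted p = 0.0182). The transcription factor genes SP8 (log2 difference -1.78) and TBX10 (-1.90) were also called lower, as were the synaptic organiser CBLN2 (-2.49), the scavenger receptor family member CD163L1 (-1.90) and LOC105379362 (-2.03). TSPAN1, TSPAN6 and TSPAN8, membrane proteins of the tetraspanin family, were also called lower and were picked here after their values were seen, with log2 differences of -0.93, -1.23 and -1.10.

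**Figure D2:**
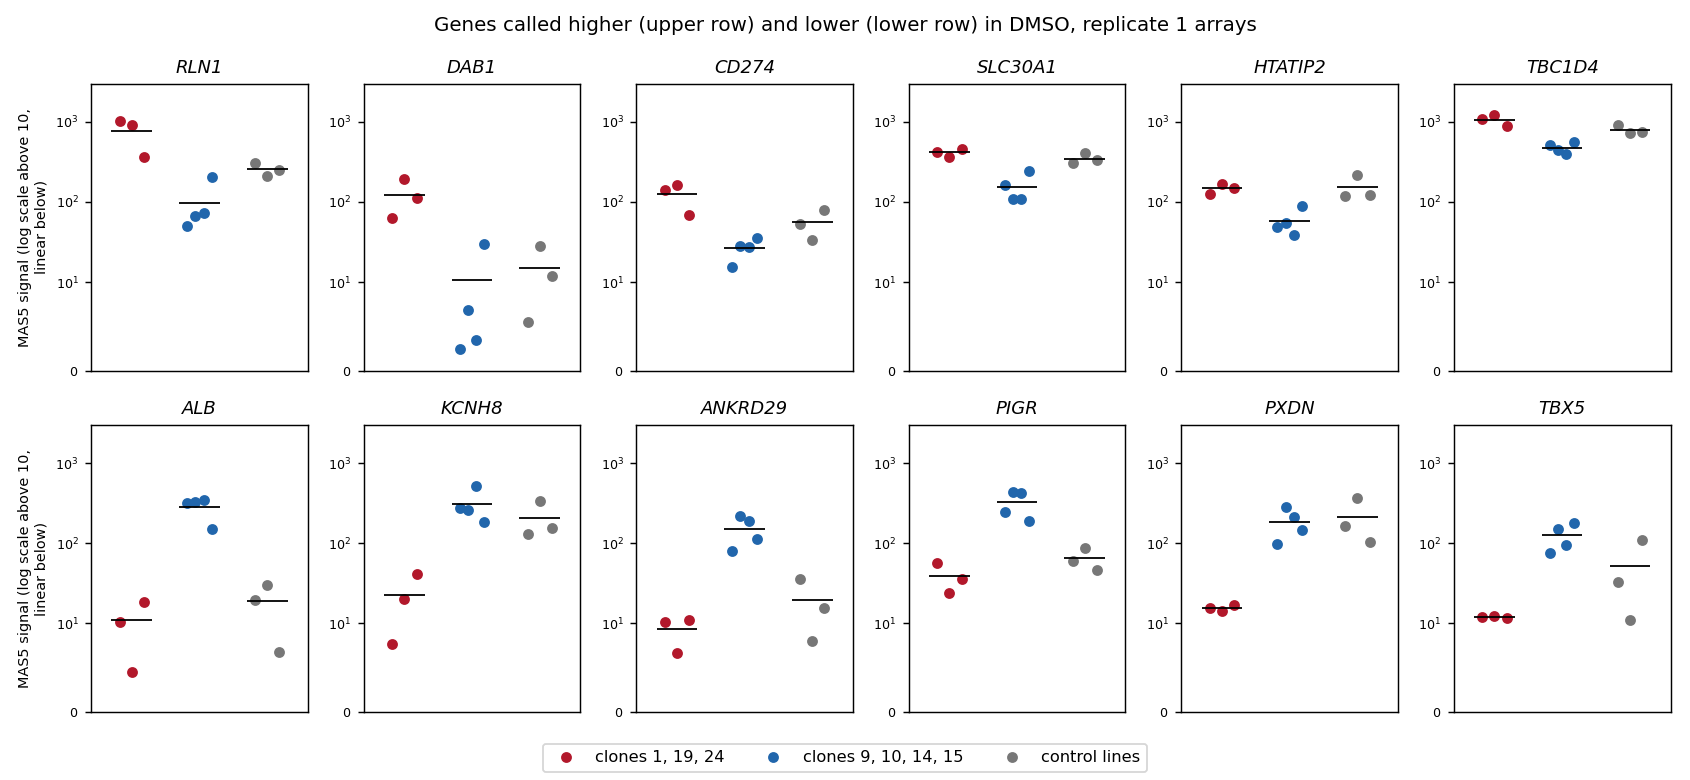
MAS5 signal per array in DMSO, replicate 1, for 6 genes called higher (upper row) and 6 called lower (lower row) in clones 1, 19 and 24. Points are arrays, black bars are group means, and the vertical axis is logarithmic above 10 and linear below. Clones 1, 19 and 24 are above clones 9, 10, 14 and 15 in each upper panel and below them in each lower panel, and the control lines side with different groups in different genes.

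For 87 of the 109 called genes the mean of clones 1, 19 and 24 was nearer to that of the control lines than the mean of clones 9, 10, 14 and 15 was, including 73 of the 88 lower and 14 of the 21 higher genes. The share over all genes is not given here, so the count is not read as a general likeness to the control lines. Of the 88 lower genes, 29 lie in the stretch of chromosome 2 described below. In the MDV3100 arrays of the same set, all 109 genes had the same direction as in DMSO, beside 76.81% of all genes, and 92 did not overlap, beside 8.86% of all genes. The clones had been sorted with those MDV3100 arrays, which are therefore no independent check. The size of a difference is least certain where 1 group is dim: in 15 of the 109 genes, ALB, ANKRD29, TBX5, NLGN1 and RGS2 among them, the mean of the dimmer group was under the filter, and in 43 of the 109 a pseudocount of 1 or 64 moved the log2 difference by over 1.5 times. For ALB it was -4.68 with a pseudocount of 1 and -2.18 with 64. Of 60 further probe sets of the called genes, 58 had the same direction.

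In replicate 2, the arrays labelled with the same clone numbers gave 0 called genes (0%), 200 genes at an unadjusted p under 0.05, and a smallest adjusted p of 0.9993 in limma. The difference between the replicate sets gave 0 calls as well (0%), with 517 genes at an unadjusted p under 0.05 and a smallest adjusted p of 0.3713, so a difference between the sets was not shown for any single gene. Of the 109 genes, 81 (74.31%) had the same direction in replicate 2, beside 62.51% of all genes, and 4 did not overlap, beside 2.3% of all genes. Their median size was 0.88 in replicate 1, and the median in the same direction was 0.17 in replicate 2. With both sets in 1 fit and the replicate number as a block, 0 genes were called and 1365 had an unadjusted p under 0.05.

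RLN1 in replicate 2 was 982.4 in clone 1, 80.9 and 104.5 in clones 19 and 24, and 95.9, 80.9, 110.6 and 116.2 in clones 9, 10, 14 and 15. CD274 was 176.3 in clone 1, 14.3 and 14.7 in clones 19 and 24, and 13.9, 13.8, 13.9 and 21.3 in clones 9, 10, 14 and 15. In these genes the replicate 2 arrays of clones 19 and 24 were at the level of clones 9, 10, 14 and 15, unlike their replicate 1 arrays. RGS2, a regulator of G protein signalling that was called lower in replicate 1 and is shown here after its values were seen, was 0.3 in clone 1 in replicate 2, 505.6 and 789.3 in clones 19 and 24, and 506.6, 471.0, 705.0 and 527.1 in clones 9, 10, 14 and 15.

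**Figure D3:**
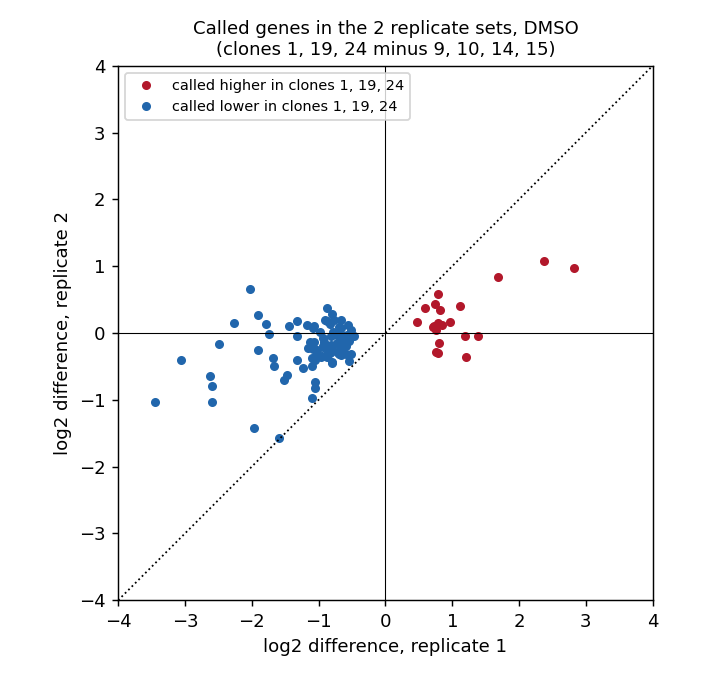
Log2 difference (clones 1, 19, 24 minus clones 9, 10, 14, 15) of the 109 called genes in replicate 1 (horizontal) and in replicate 2 (vertical), both in DMSO, with the dotted line of equal values. The genes reach from -3.45 to 2.82 on the horizontal axis and from -1.57 to 1.08 on the vertical one, where the median in the same direction is 0.17.

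Chromosome 2 held 36 of the 109 called genes, which is 4.749% of its 758 measured genes, beside 0.92% of all genes, and 29 of the 88 lower genes lay among the first 320 measured genes of the chromosome, from FAM110C to EIF2AK3-DT in RefSeq order. In that stretch 306 of 320 genes were lower in clones 1, 19 and 24, with a median log2 difference of -0.42, and 191 (59.69%) were lower without overlap, beside 9.01% of all genes. The other 438 genes of the chromosome had a median of -0.02. Calls in it were 9.062% of its genes in the lower direction, beside 0.742% of all genes. The stretch and its edge were chosen after the values were seen, so no test is given.

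Members of the stretch with known roles show the size of the shift and were picked after their values were seen. DGUOK, a mitochondrial kinase of deoxyguanosine, had 514.6, 586.4 and 611.9 in clones 1, 19 and 24, against 874.2, 951.7, 900.2 and 912.9 in clones 9, 10, 14 and 15, with the control lines at 502.4, 467.9 and 521.6. TMSB10, which encodes an actin-binding thymosin, had 1761.7, 2117.1 and 2310.6 in clones 1, 19 and 24, against 3267.5, 3319.5, 3562.2 and 2939.1 in clones 9, 10, 14 and 15, with the control lines at 1767.5, 1672.9 and 1653.6. The adenylyl cyclase gene ADCY3 had 249.6, 188.6 and 237.6 in clones 1, 19 and 24, against 406.9, 376.2, 366.2 and 349.3 in clones 9, 10, 14 and 15, with the control lines at 255.7, 249.8 and 244.8. In all 3 genes the groups did not overlap and the control lines were at the level of clones 1, 19 and 24.

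Set against the mean of the control lines, the median of these 320 genes was -0.01, 0.02 and 0.12 in clones 1, 19 and 24. It was 0.48, 0.45, 0.47 and 0.39 in clones 9, 10, 14 and 15. All 4 of these clones were therefore higher than the control lines over the stretch, and clones 1, 19 and 24 were near them. The difference was -0.40 in the MDV3100 arrays and 0.00 in replicate 2. The replicate 2 medians against the control lines were -0.01, -0.05, -0.01 and -0.02 in the arrays labelled clones 9, 10, 14 and 15. They were 0.02, 0.00 and 0.03 in those labelled clones 1, 19 and 24. The rise over the control lines seen in replicate 1 was thus absent from each replicate 2 array of clones 9, 10, 14 and 15, and the cause was not tested. Cut into 296 windows of at least 20 and at most 40 neighbouring genes, the genome had 8 windows with a median at or below -0.3, which were the 8 windows of this stretch, and 0 at or above 0.3, while 275 lay within 0.15. Smaller shifts stood elsewhere. The last windows of chromosome 1, from ABL2 to PGBD2, had medians of -0.25 to -0.14. On chromosome 11, 69.68% of 663 genes were lower, beside 53.53% of all genes, and its median against the control lines was 0.00, -0.22 and 0.06 in clones 1, 19 and 24, and 0.02, 0.02, 0.04 and 0.05 in clones 9, 10, 14 and 15. Clone 19 alone was low over the whole chromosome. In its last windows, from CREBZF to GLB1L2, clone 9 was low as well, with medians of -0.33 to -0.12, beside -0.31 to -0.19 in clone 19. Chromosome 13 had a median difference of 0.16 over 205 genes, but the clones of a group were not alike there. Its median against the control lines was -0.48, -0.06 and -0.08 in clones 1, 19 and 24, and -0.35, -0.38, -0.43 and -0.22 in clones 9, 10, 14 and 15, so clone 1 was the lowest of the 7. DNA copy number was not measured in these files.

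**Figure D4:**
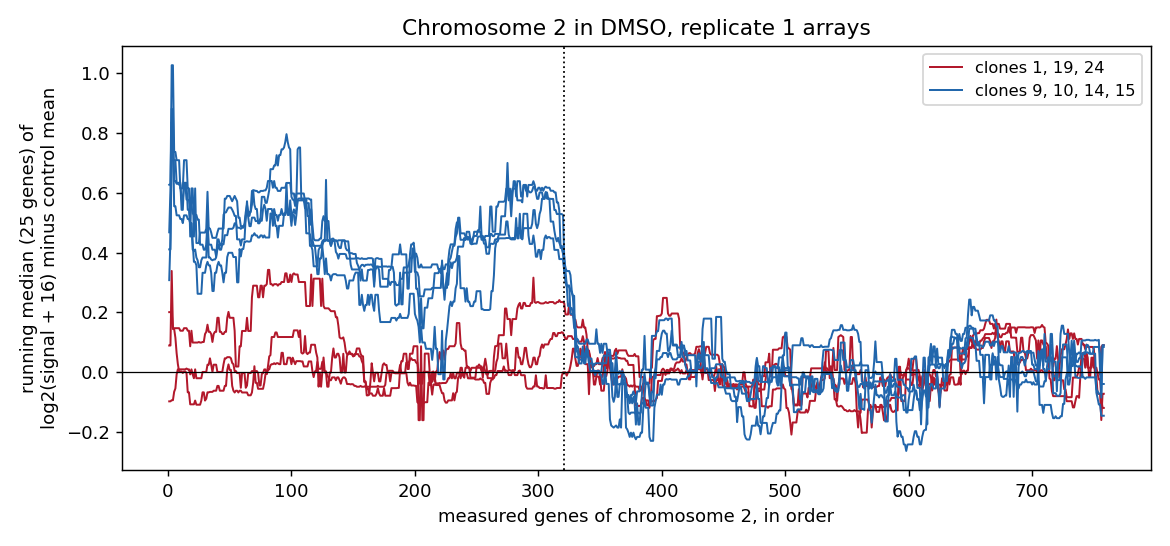
Running median over 25 genes of the log2(signal + 16) difference from the control line mean (vertical), for measured genes of chromosome 2 in order (horizontal), DMSO, replicate 1. Up to the dotted line, after gene 320, clones 9, 10, 14 and 15 have medians of 0.39 to 0.48 and clones 1, 19 and 24 of -0.01 to 0.12. Past it the 7 clones lie around 0.

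RLN1 and CD274 are close neighbours on chromosome 9, which was noticed after their values were seen. RLN2, the relaxin 2 gene beside RLN1, had signals of 517.2, 296.0 and 217.9 in clones 1, 19 and 24, against 32.6, 73.2, 90.4 and 144.3 in clones 9, 10, 14 and 15, a log2 difference of 1.87 that missed the threshold (adjusted p = 0.0781). PLGRKT, the plasminogen receptor gene between RLN1 and CD274, differed by 0.49 (adjusted p = 0.155). The measured genes on either side differed less, with 0.28 for JAK2, 0.19 for RIC1 and -0.02 for ERMP1, and none of them was called. RLN1 and RLN2 are related genes, and whether their probe sets tell them apart was not tested, so the split of signal between them is uncertain.

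The promoters of these genes are shown because these neighbours differed in the same direction and the relaxin genes can be compared. They are RefSeq sequences of GRCh38.p14, 250 bases before to 50 after the start, 5′ to 3′, for RLN1 (chr9:5339827-5340126, minus strand), the entry of RLN2 that aligns with it (chr9:5304667-5304966, minus strand) and CD274 (chr9:5450292-5450591, plus strand). The 2 motifs searched on both strands were AGAACA, with its reverse complement TGTTCT, the half-site bound by androgen and glucocorticoid receptors, and TTCNNNGAA, its own reverse complement, the form bound by STAT factors. Capitals mark AGAACA in RLN1 and RLN2 and TTCNNNGAA in CD274.
RLN1: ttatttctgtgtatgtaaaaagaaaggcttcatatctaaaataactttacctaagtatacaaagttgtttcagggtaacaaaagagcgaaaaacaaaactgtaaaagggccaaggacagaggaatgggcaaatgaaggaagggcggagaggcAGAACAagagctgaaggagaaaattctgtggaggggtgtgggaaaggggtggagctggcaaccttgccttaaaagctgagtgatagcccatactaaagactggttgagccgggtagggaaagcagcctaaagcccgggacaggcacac
RLN2: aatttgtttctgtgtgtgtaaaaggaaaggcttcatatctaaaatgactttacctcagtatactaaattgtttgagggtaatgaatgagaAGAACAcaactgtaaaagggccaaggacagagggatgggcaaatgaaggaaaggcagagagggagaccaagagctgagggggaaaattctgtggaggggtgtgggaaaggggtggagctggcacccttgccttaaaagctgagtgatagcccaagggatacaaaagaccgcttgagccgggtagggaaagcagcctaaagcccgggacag
CD274: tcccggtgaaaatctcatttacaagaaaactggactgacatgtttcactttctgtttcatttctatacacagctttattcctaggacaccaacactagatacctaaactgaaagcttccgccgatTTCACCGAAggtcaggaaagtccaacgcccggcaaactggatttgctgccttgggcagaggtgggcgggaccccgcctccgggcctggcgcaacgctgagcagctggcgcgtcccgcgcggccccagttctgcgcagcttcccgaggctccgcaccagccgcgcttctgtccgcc
RLN1 was identical to this RLN2 window at 89.3% of 300 bases, and to the other RLN2 entry at 52.0%. The AGAACA match begins at position -98 in RLN1 and -160 in RLN2, counted from the start, and CD274 has none. The TTCNNNGAA match in CD274 begins at -125, and RLN1 and both RLN2 entries have none. The windows of KLK2 and KLK3 were searched too: KLK3 has AGAACA at -170, and KLK2 has neither motif. Of 35116 promoters of this length, 14.8% hold AGAACA or its complement and 7.7% hold TTCNNNGAA. Neither search says whether a factor binds there.

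Over the gene lists of pathways and cell types, without the androgen-induced genes, 3 of 295 tested members were called, or 1.02%, near the 0.92% of all genes. Of the 11 measured glucocorticoid-induced genes, all 11 were higher in clones 1, 19 and 24 and 0 were called, with a median difference of 0.36 beside -0.02 over all genes, and 5 did not overlap, where 6.8% of all genes were higher without overlap. TAT, FKBP5, TSC22D3 and KLF15 hardly differed, at 0.01, 0.02, 0.03 and 0.07. The list median was 0.27 without clone 1 and -0.06 in replicate 2. SGK1, a serum- and glucocorticoid-induced kinase, had 403.5, 197.9 and 258.6 in clones 1, 19 and 24, against 149.8, 180.0, 138.1 and 149.1 in clones 9, 10, 14 and 15, with an adjusted p of 0.125. ZBTB16, a zinc finger repressor, had 574.8, 293.1 and 352.5 in clones 1, 19 and 24, against 161.7, 213.9, 259.2 and 252.0 in clones 9, 10, 14 and 15, with an adjusted p of 0.153. FKBP5 is also in the androgen-induced list. The androgen and glucocorticoid receptors bind the same half-site, and whether other members of this list respond to androgen in these cells was not tested. The list may therefore not be independent of the values that chose the clones.

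Of 30 proliferation genes, 26 were lower in clones 1, 19 and 24, where 53.53% of all genes were lower, with a median of -0.16. None was called, where 0.742% of all genes were called lower, and 4 were lower without overlap, beside 9.01% of all genes. UBE2C, a ubiquitin-conjugating enzyme of mitotic exit, had 703.6, 740.4 and 761.0 in clones 1, 19 and 24, against 1029.5, 913.4, 1048.6 and 966.0 in clones 9, 10, 14 and 15 (adjusted p = 0.0781). The 9 androgen-repressed genes had a median of -0.60 with 0 called, and clone 1 set that value, since the median was -0.06 without it. UGT2B15, which glucuronidates androgens, had 74.2, 685.7 and 611.2 in clones 1, 19 and 24, against 1417.4, 1185.4, 1106.6 and 849.7 in clones 9, 10, 14 and 15 (adjusted p = 0.226). Its relative UGT2B17 had 23.3, 909.9 and 372.1 in clones 1, 19 and 24, against 836.9, 629.5, 529.2 and 487.7 in clones 9, 10, 14 and 15 (adjusted p = 0.486), with clone 1 far below the rest.

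The 3 called members were CDKN2B, TP53I3 and NLGN1. Of 17 cell cycle regulators, CDKN2B was called higher, and TP53I3, a p53 target gene, was called lower with 66.2, 40.8 and 65.5 in clones 1, 19 and 24, against 131.2, 260.2, 213.1 and 149.0 in clones 9, 10, 14 and 15 (adjusted p = 0.0415). TP53I3 lies in the stretch of chromosome 2 described above, where most genes were lower. In the same list, CDKN1A, MDM2 and ZMAT3 differed by 0.07, 0.04 and 0.02. SESN1 differed by 0.65 and GADD45A by -0.38, and none of these was called. Of 6 neuroendocrine and neuronal genes, NLGN1, a synaptic adhesion gene, was called lower with 5.8, 6.0 and 5.0 in clones 1, 19 and 24, against 34.3, 39.1, 25.6 and 15.5 in clones 9, 10, 14 and 15 (adjusted p = 0.0496). ETV1, an ETS factor gene, had 0.3, 871.2 and 58.8 in clones 1, 19 and 24, against 43.5, 15.9, 3.3 and 11.5 in clones 9, 10, 14 and 15, and clone 19 alone neared the control lines, at 1293.3, 1162.7 and 1344.5. IGFBP3, a binding protein of insulin-like growth factors, had 68.6, 136.6 and 80.2 in clones 1, 19 and 24, against 315.4, 1002.1, 722.1 and 146.3 in clones 9, 10, 14 and 15 without passing the test (adjusted p = 0.134).

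The remaining lists had 0 called genes. Their median differences were -0.09 for 16 steroid metabolism genes, -0.04 for 9 ETS factors, -0.07 for 10 prostate lineage factors, -0.32 for 13 collagen and matrix genes and -0.07 for 22 interferon and antigen presentation genes. They were 0.05 for 16 genes of cholesterol and fatty acid synthesis, 0.13 for 20 genes of unfolded protein and amino acid stress and 0.04 for 21 of glycolysis and hypoxia. They were -0.06 for 17 growth factor receptor and PI3K genes, 0.00 for 15 of Wnt and Hippo signalling, 0.04 for 12 of drug transport, 0.02 for 15 apoptosis regulators and 0.06 for 12 coregulators. Among the steroid metabolism genes, UGT2B28, another androgen-glucuronidating enzyme, had 18.2, 101.2 and 234.2 in clones 1, 19 and 24, against 866.8, 511.0, 440.9 and 308.0 in clones 9, 10, 14 and 15, without overlap (adjusted p = 0.115).

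Cell type markers were followed as summed signal over the markers with a probe set. The 18 luminal markers summed to 18572.2 to 19464.3 in clones 1, 19 and 24, and 17984.1 to 18791.5 in clones 9, 10, 14 and 15, with a median difference of 0.09 over the 17 measured genes. The 18 mesenchymal markers summed to 1657 to 2205.5 in clones 1, 19 and 24, and 977.1 to 1835.7 in clones 9, 10, 14 and 15, with a median of -0.11 over 8. The 9 basal markers summed to 371 to 523.5 in clones 1, 19 and 24, and 272.3 to 421.2 in clones 9, 10, 14 and 15, with a median of 0.17 over 2. Fibroblast markers summed to 149 to 185.2 in clones 1, 19 and 24, and 138.4 to 213.8 in clones 9, 10, 14 and 15, with a median of -0.45 over 3. Endothelial markers summed to 38.5 to 46 in clones 1, 19 and 24, and 24.5 to 37.5 in clones 9, 10, 14 and 15, with VWF alone above the filter, and leukocyte markers summed to 10.4 to 16.5 in clones 1, 19 and 24, and 12.3 to 24.2 in clones 9, 10, 14 and 15, with 0 above it. Fewer cells of a type and less RNA per cell cannot be told apart in such arrays, and the part of other cells in the differences was not tested.

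**Figure D5:**
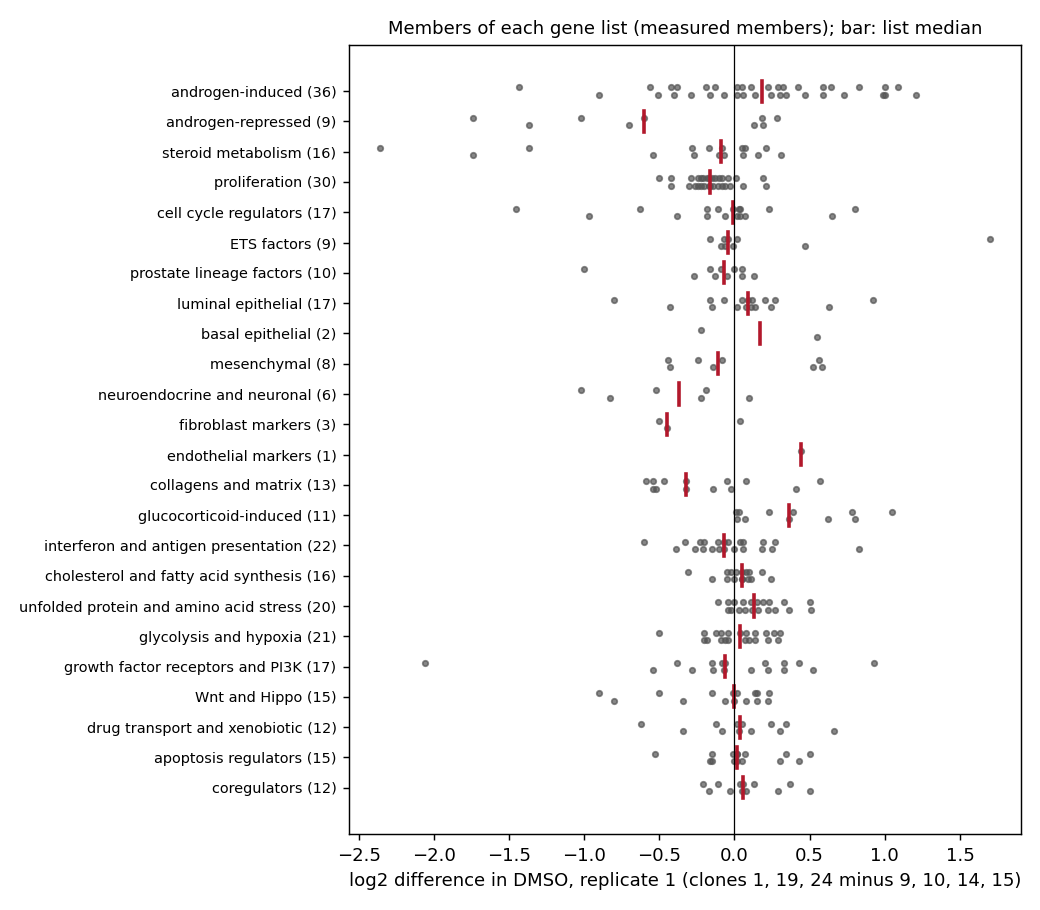
Log2 difference in DMSO, replicate 1 (clones 1, 19, 24 minus clones 9, 10, 14, 15), of each measured member of the gene lists (points) with the list median (bar). The glucocorticoid-induced genes all lie at or above 0.01, with a median of 0.36, and the proliferation genes have a median of -0.16.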

How the data were processed

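The values are linear signal intensity per probe set as deposited by the authors, and the submitters' processing notes name MAS5, with a version not given in the sources used here. The mean after trimming 2% at each end was 150 in every array, so no further scaling was applied. All columns were matched to samples by identifier. Probe sets at or above the median of all means over the 40 arrays were kept (27338 of 54675, a signal of 12.1). Values were taken as log2(signal + 16), so differences of dim genes are understated. Of the probe sets, 41097 had 1 gene in the platform annotation, 1801 several and 11777 none. The brightest probe set stood for each of 11853 genes. The 7 arrays were fitted with limma 3.58.1 in R 4.3.3 and adjusted over all genes by Benjamini-Hochberg. The number of arrays limits the precision. Figures used matplotlib 3.10.9. The clones, the 25 gene lists and the tests were chosen with earlier results of these data known, and some members of the androgen lists were taken from them. Named genes are up to 12 called higher and 12 called lower, the largest without overlap outside the androgen-induced list, then a fixed set and up to 4 members of each list. Genes outside the rule are said to have been picked after their values were seen. Alternatives covered the pseudocount, filter, scaling, probe sets, variance trend, arrays in the fit and each clone left out.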

Additional observations from a re-analysis of the deposited data

Results flagged for a closer look

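In 4 of 114 named genes, 1 of the 4 arrays of clones 9, 10, 14 and 15 stood apart from the others by Dixon's ratio, the gap to the nearest array over the range. Chance flags about 1 in 20 such groups. ALB was lowest in clone 15 (ratio 0.898), with 149.9 against 321.5 to 349.8 in clones 9, 10 and 14. TOP2A, a DNA topoisomerase, was highest in clone 9 (0.884), and so was the integrin gene ITGA6 (0.849). The actin gene ACTA2 was lowest in clone 9 (0.853), with 195.6 against 557.3 to 664.3 in clones 10, 14 and 15.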

How the results depend on the processing

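The 109 called genes kept their direction in all 18 alternatives. In none of them did the arrays of the groups overlap, so a left-out clone or another pseudocount could not turn the direction. The count of calls did not hold. It was 57 with pseudocount 1, 36 without the filter on dim probe sets, 69 after quantile normalization, 165 with an intensity trend and 277 with the control lines in the fit, and it stayed within 1.5 times of 109 in the other alternatives on 7 clones. With both replicate sets and the replicate number as a block it was 0. Leaving out 1 clone gave between 0 and 132 calls. Lower genes were 80.7% of calls, against 95.7% without clone 1, 100% without clone 9 and 62.9% without clone 15. In replicate 2, and in the difference of the sets, 0 genes were called under each alternative run, both pseudocounts and median centring. Among named genes, 190 of 2048 values lost the call and 10 gained it. Some uncalled genes changed sign when 1 clone was left out. Over all alternatives, not only those without 1 clone, the difference ran from -0.14 (without clone 1) to 0.54 for OPRK1. It ran from -1.68 to 0.02 (without clone 19) for DAPK1 and -0.33 to 0.30 (without clone 19) for ELF5. For ACP3 it ran from -0.26 (without clone 19) to 1.12, and for COL1A1 from -0.05 (without clone 15) to 0.12. For COL5A2 it ran from -0.96 to 0.11 (without clone 19), and for LEF1 from -0.79 to 0.19 (without clone 1). COL1A1 was also at -0.01 without clone 24. With the replicate block OPRK1 was at -0.11 and PFKP at -0.01, and with the mean of the DMSO and MDV3100 arrays ELF5 was at 0.07. The cause was not tested. Differences between signals near or under the pseudocount of 16 are understated on this scale, and detection calls were not used here.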
